A study of Mus musculus with 12 samples.

Results

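The 40 genes described here encode the machinery of late cell division: the cyclins, kinases and phosphatases of mitotic entry, the spindle checkpoint and anaphase regulators, centromere and kinetochore proteins, spindle motors, cytokinesis proteins and proteins of mitotic chromosome structure. They were taken as a named list of G2 and mitosis genes, without a threshold but with earlier results of these data known. They were matched by symbol to a table of 47517 gene symbols. All 40 were found, and all 40 were among the 17609 genes that passed the low-count filter. In a dividing cell the transcripts of these genes build up through G2, when cyclin B binds Cdk1 and drives entry into mitosis, and many of them are held down in resting cells by the DREAM complex and switched on by B-MYB and FOXM1. The spindle checkpoint keeps the anaphase-promoting complex (APC/C) inactive until every kinetochore is attached, after which separase cuts cohesin and the central spindle directs cleavage of the cell. Fibroblasts in culture are a common system for these genes because the cells divide.

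RNA was measured in mouse embryonic fibroblasts (MEFs) from E13.5 C57BL/6 embryos, in 6 groups of 2 libraries, 12 in all. All groups carried floxed Ssb1 (gene symbol Nabp2) and Ssb2 (Nabp1), which encode single-stranded DNA binding proteins, and all were immortalised with SV40 large T antigen, a viral protein that binds and blocks p53 and the RB family. The Cre-positive cells (Cre +ve) had Ssb1 labelled Fl/F and Ssb2 labelled Fl/Fl. They carried RosaCreERT2, a Cre recombinase expressed from the Rosa locus and designed to be induced by 4-hydroxytamoxifen (4-OHT). They were given 4-OHT for 5 days (libraries 11 and 12) or ethanol, the vehicle, for 5 days (libraries 3 and 4). Libraries 7 and 8 had no treatment. The Cre-negative cells (Cre -ve, with both genes labelled Fl/Fl) had 4-OHT for 5 days (libraries 5 and 6), ethanol for 5 days (libraries 9 and 10) or no treatment (libraries 1 and 2). The study set out to find the transcripts that change when both genes are lost. The labels give no sign that either genotype was more than 1 line, so genotype and line cannot be told apart. Nor do they say whether both libraries of a group were grown apart, so each p-value covers the variation among these libraries, part of which may be technical.

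Total counts ran between 20201855 and 36367012 per library, and each mitotic gene had between 272 and 45384 counts in a library. Nabp1 fell to 3.40 and 3.96 CPM (counts per 1000000 counts of the scaled library) with 4-OHT in Cre-positive cells, against 14.5 and 15.9 CPM with ethanol, and Nabp2 fell to 4.84 and 5.09 CPM with 4-OHT, against 19.8 and 22.6 CPM with ethanol. In Cre-negative cells 4-OHT did not change either at an adjusted p under 0.05 (0.883 and 0.177). Without 4-OHT both genes were already lower in Cre-positive than in Cre-negative cells. Untreated, Nabp1 had 16.1 and 15.2 CPM in Cre-positive cells, against 27.5 and 25.2 CPM in Cre-negative cells. Nabp2 had 22.5 and 20.7 CPM, against 27.1 and 27.0 CPM. With ethanol, Cre-negative cells had 26.5 and 24.5 CPM of Nabp1 and 26.2 and 26.4 CPM of Nabp2. This genotype difference was not tested. Of 10 fibroblast markers 7 were abundant (among them Col1a1, Pdgfrb and Vim), whereas Thy1, Lum and Dcn stayed below 1 CPM in every library. The epithelial, haematopoietic, endothelial and skeletal muscle markers, each list summed on its own, reached at most 4.79 CPM in any library. Of the neural markers, Map2 and Sox2 were present, and Olig2 was at 0 in all 12 libraries. In Cre-positive cells the summed neural level was 74.6 and 76.9 CPM with 4-OHT, against 77.2 and 78.0 CPM with ethanol. This sum joins markers that differed in opposite directions between genotypes. In untreated cells Sox2 had 30.4 and 30.1 CPM with Cre, against 11.9 and 10.8 CPM without it. Map2 had 28.3 and 31.0 CPM with Cre, against 62.5 and 63.9 CPM without it.

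In Cre-positive cells more mitotic genes were lower with 4-OHT than were higher. Of the 40 genes, 21 were lower and 4 were higher with 4-OHT than with ethanol, and 15 did not pass the test (edgeR's quasi-likelihood test with Benjamini-Hochberg adjustment over all genes tested, threshold 0.05). Over all 17609 genes 17.2% were called lower and 21.1% higher, 38.3% in all. The median log2 change of the 40 genes was -0.10, against 0.03 over all genes tested. The changes were small: the lowest was -0.55 and the highest 0.43 on the log2 scale. In 28 of the 40 genes both 4-OHT libraries lay below both ethanol libraries, in 8 they lay above, and in 4 the groups overlapped; 30.6% of all genes lay wholly below and 36.9% wholly above. Leaving out library 11 reduced the genes called lower to 14, and leaving out library 12 reduced them to 15. In RNA from whole cultures, fewer cells in G2 or mitosis and less RNA per such cell cannot be told apart.

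**Figure D1:**
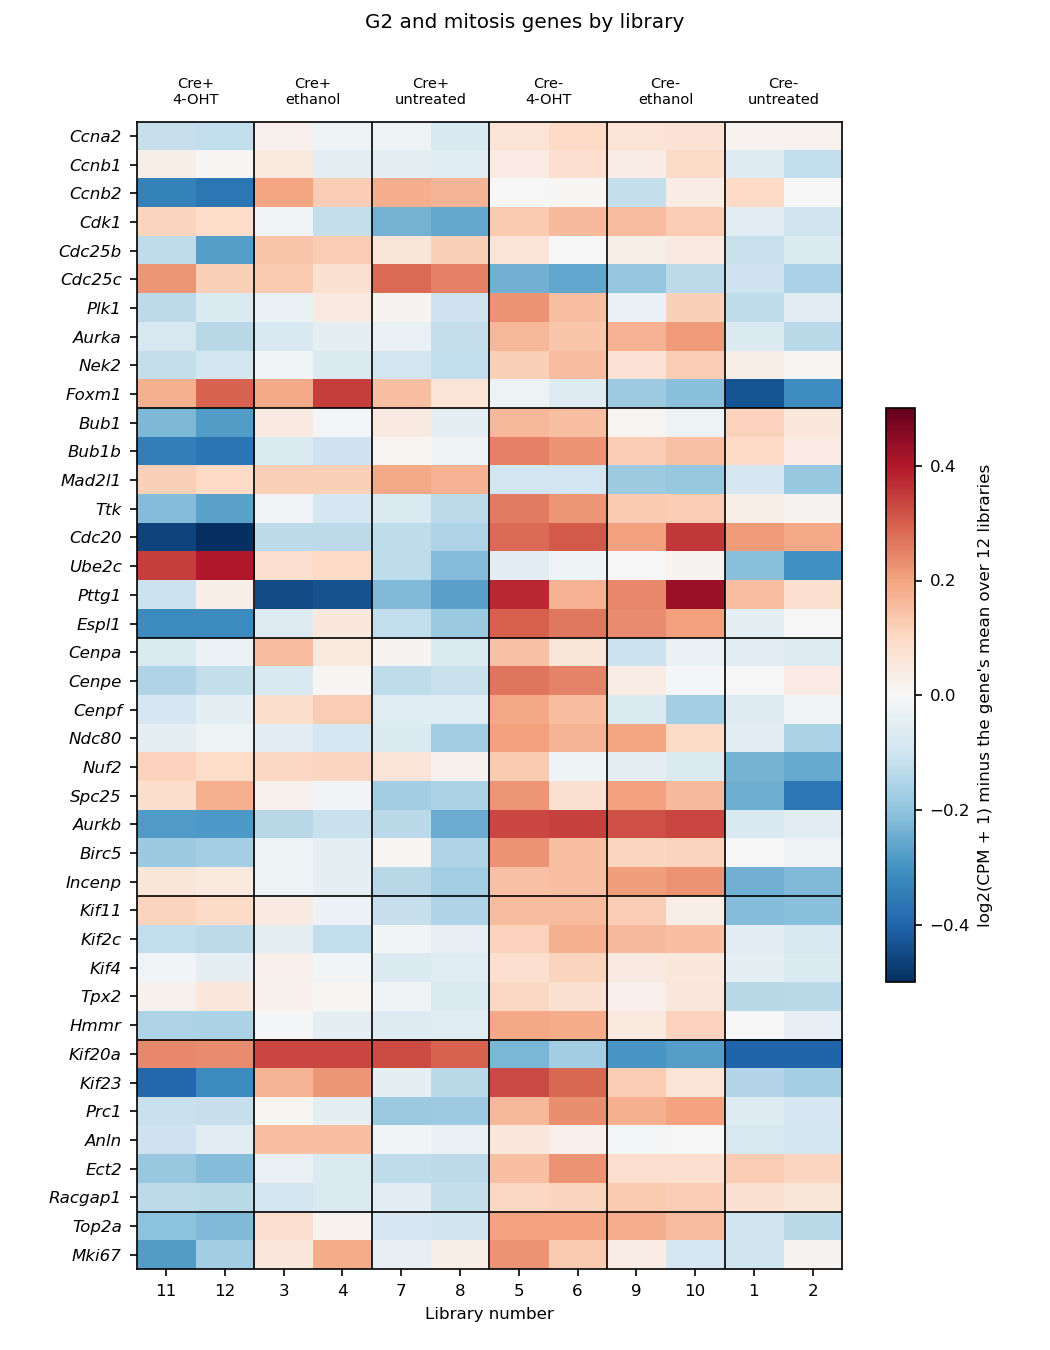
Level of each of the 40 genes (rows, grouped by role with lines between roles) in each of the 12 libraries (columns), as log2(CPM + 1) minus the gene's mean over the 12 libraries, with colours limited to -0.5 and 0.5. The Cre-positive 4-OHT group has the lowest mean for 21 genes, and the Cre-negative 4-OHT group has the highest mean for 24.

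The summed level of the 40 genes was compared over all groups. In Cre-positive cells it was 8403 and 8459 CPM with 4-OHT, against 9348 and 9290 CPM with ethanol and 8764 and 8634 CPM without treatment. In Cre-negative cells it was 10069 and 9974 CPM with 4-OHT, 9554 and 9466 CPM with ethanol and 8667 and 8631 CPM without treatment. The Cre-positive 4-OHT libraries were thus the lowest of the 12, and the Cre-negative 4-OHT libraries the highest, with both untreated groups near the low end. Mitochondrially encoded genes took 1.83% and 1.92% of counts with 4-OHT in Cre-positive cells, against 1.49% and 1.74% with ethanol; the part of this in the result was not tested. Levels per length of the gene's exons were compared over all 12 libraries: Top2a had the highest, 145.5 CPM per kilobase, followed by Ccna2 at 106.0, and Cdc25c had the lowest, 7.71, next to Pttg1 at 8.35.

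Promoters of mitotic genes are known for CCAAT boxes, which bind NF-Y, and for the cell cycle genes homology region (CHR), which binds DREAM and B-MYB complexes. RefSeq promoter windows (build GRCm38.p6), cut here to the 250 bases before the start, were found for 33 of the 40 genes (35 windows). They were searched on both strands for the CCAAT box, whose letters read ATTGG when the match lies on the opposite strand. The CHR was searched for in a pair of forms. The more common form is TTTGAA, which appears in reverse as the letters TTCAAA in a window read along the gene. The rarer form, TTCGAA, reads alike on both strands. CCAAT was present in 28 of the 35 windows (80.0%), against 33.8% of all 32851 windows, and the CHR letters in 13 (37.1%), against 17.1%. Both were present in 12 windows (34.3%), against 6.0% of all windows. By the call with 4-OHT in Cre-positive cells, CCAAT was in 90.0% of the 20 windows of genes called lower, 75.0% of the 4 windows of genes called higher and 63.6% of the 11 windows of genes not called. The CHR letters were in 9, 2 and 2 of these windows. These are counts of letters in a window, with no test. The 20 windows of genes called lower belong to 18 genes, as Ect2 and Prc1 have 2 windows each. For Aurka, Kif2c, Mad2l1 and Kif11, all not called, and for Kif23, bases after the RefSeq start matched no GENCODE M21 transcript of the gene. For Kif23 the bases checked began upstream of the GENCODE start, so no match was possible and the check cannot judge its window. The windows of all these genes were kept in the counts. Most of them belong to genes not called, so the shares by call are uncertain. The windows shown are those of 4 of the genes that fell with the smallest p, and of Ube2c, which rose and was added after its values were seen. Each is written from its 5′ end towards the start of the gene, with matches to CCAAT and the CHR in capitals. In Ube2c, CCAAT and ATTGG overlap within CCAATTGG.
Kif23: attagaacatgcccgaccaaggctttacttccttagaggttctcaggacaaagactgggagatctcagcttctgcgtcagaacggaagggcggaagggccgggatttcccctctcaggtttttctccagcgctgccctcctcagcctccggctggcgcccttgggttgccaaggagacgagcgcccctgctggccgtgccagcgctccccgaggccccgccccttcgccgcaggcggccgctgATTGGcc
Ccnb2: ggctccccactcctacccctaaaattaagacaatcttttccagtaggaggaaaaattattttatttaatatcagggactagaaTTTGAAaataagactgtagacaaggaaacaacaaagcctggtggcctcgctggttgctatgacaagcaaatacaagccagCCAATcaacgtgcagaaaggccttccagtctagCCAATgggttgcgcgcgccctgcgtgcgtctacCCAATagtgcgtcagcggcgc
Cdc20: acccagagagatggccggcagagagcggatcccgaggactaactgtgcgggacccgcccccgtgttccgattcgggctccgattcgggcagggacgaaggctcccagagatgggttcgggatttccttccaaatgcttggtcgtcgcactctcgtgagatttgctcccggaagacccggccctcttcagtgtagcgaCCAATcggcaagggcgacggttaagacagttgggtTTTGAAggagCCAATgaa
Top2a: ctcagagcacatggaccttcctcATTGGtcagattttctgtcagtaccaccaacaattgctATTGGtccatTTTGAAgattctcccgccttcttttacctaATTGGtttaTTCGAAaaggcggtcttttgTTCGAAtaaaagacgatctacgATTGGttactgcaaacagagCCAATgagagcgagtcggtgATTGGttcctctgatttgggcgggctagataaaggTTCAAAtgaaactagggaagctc
Ube2c: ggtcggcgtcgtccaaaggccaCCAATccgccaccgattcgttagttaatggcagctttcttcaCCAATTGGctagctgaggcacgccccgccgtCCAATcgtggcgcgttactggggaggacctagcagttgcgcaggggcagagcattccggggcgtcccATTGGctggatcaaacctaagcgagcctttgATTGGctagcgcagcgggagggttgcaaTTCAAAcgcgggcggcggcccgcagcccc
The regions are chr9:61946800-61947049 for Kif23, chr9:70421555-70421804 for Ccnb2, chr4:118437344-118437593 for Cdc20 and chr11:99024190-99024439 for Top2a, all on the minus strand, and chr2:164769679-164769928 for Ube2c on the plus strand. The Kif23 window, with 1 CCAAT match and no CHR match, holds the fewest of the 5, and this gene had the largest fall of the 40. The RefSeq starts of Kif23 and Ccnb2 lie upstream of those in GENCODE M21. Those of Cdc20 and Ube2c lie downstream, so the end of each of their windows, with its last match, falls within the GENCODE gene. Top2a has 6 CCAAT and 4 CHR matches, and Ube2c, which moved the other way, has 6 and 1.

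Most of the cytokinesis genes fell against ethanol, but not against untreated cells. Of the 6 genes of the central spindle and cytokinesis, 5 were lower with 4-OHT than with ethanol in Cre-positive cells. That is 83.3%, against 17.2% of all genes. The remaining 1 did not pass the test, and the median log2 change was -0.12. Against untreated Cre-positive cells 1 of the 6 was lower (16.7%, against 18.2% of all genes) and 5 did not pass. Of the 6, 3 were higher with ethanol than without treatment in these cells (50%, against 8.11% of all genes). Kif23 (Mklp1), the kinesin of the centralspindlin complex that bundles central spindle microtubules, had 133 and 139.7 CPM in the 4-OHT libraries, against 196 and 203 CPM in the ethanol libraries. The 4-OHT libraries were the lowest of all 12 for this gene, below the untreated cells as well (169 and 159 CPM). Its log2 change was -0.55 (SE 0.042, adjusted p = 2.75e-09), which put the mean with 4-OHT at 68.1% of that with ethanol. Anln, the scaffold that links actin, septins and RhoA in the contractile ring, had 589.6 and 608 CPM with 4-OHT, against 703 CPM in both ethanol libraries. Its groups were separate, and the log2 change was -0.23 (SE 0.034, adjusted p = 1.85e-05). Ect2, the exchange factor that activates RhoA at the cell equator, had 259 and 254 CPM with 4-OHT, against 289 and 281 CPM with ethanol (log2 change -0.15, SE 0.037, adjusted p = 0.00260). The falls of Kif20a (-0.10), which carries the chromosomal passenger complex to the central spindle, and of Prc1 (-0.10), which crosslinks its microtubules, were smaller. Both calls were lost without library 11 (adjusted p = 0.125 for Kif20a and 0.140 for Prc1) and without library 12 (0.130 and 0.159), Kif20a also without library 4 (0.0962) and Prc1 without library 3 (0.101). Over 18 other settings their adjusted p ran between 0.0128 and 0.130 for Kif20a and between 0.0167 and 0.796 for Prc1. Racgap1, the partner of Kif23 in centralspindlin, had 262.9 CPM in both 4-OHT libraries, against 270.4 and 274 CPM with ethanol, and did not pass the test (log2 change -0.05, adjusted p = 0.282).

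Among spindle checkpoint and anaphase genes more fell than rose. Of 8 genes 5 fell and 2 rose (62.5% and 25%, against 17.2% and 21.1% of all genes), and the median log2 change was -0.23. The share that rose was thus near that of all genes. Cdc20, the APC/C activator that the checkpoint inhibits, had 128 and 121 CPM with 4-OHT in Cre-positive cells, against 162 and 161 CPM with ethanol. Its 4-OHT libraries were the lowest of the 12, and the log2 change was -0.38 (SE 0.045, adjusted p = 1.33e-06). Bub1b (BubR1), a subunit of the mitotic checkpoint complex, had 168 and 165 CPM with 4-OHT, against 203 and 199 CPM with ethanol (log2 change -0.27, SE 0.037, adjusted p = 6.41e-06). Espl1, which encodes separase, had 73.0 and 73.2 CPM with 4-OHT, against 87.3 and 94.9 CPM with ethanol (log2 change -0.32, SE 0.045, adjusted p = 1.04e-05). Neither gene's groups overlapped, and in both the 4-OHT libraries were the lowest of all 12. The checkpoint kinases Bub1 and Ttk also fell, with log2 changes of -0.27 and -0.19, and Mad2l1, the checkpoint protein that binds Cdc20, did not pass the test (log2 change -0.01, adjusted p = 0.855).

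The remaining genes of this role, Ube2c and Pttg1, rose. Ube2c, the ubiquitin-conjugating enzyme that starts chains on APC/C substrates, had 156 and 163 CPM with 4-OHT, against 130.0 and 132 CPM with ethanol. Its 4-OHT libraries were the highest of all 12, and the log2 change was 0.28 (SE 0.042, adjusted p = 1.67e-05). Pttg1 (securin), the inhibitor of separase, had 15.1 and 16.7 CPM with 4-OHT, against 11.8 CPM in both ethanol libraries (log2 change 0.43, SE 0.092, adjusted p = 0.000857). Its 4-OHT libraries lay above the other Cre-positive libraries (13.9 and 13.4 CPM untreated) but below all Cre-negative libraries, and its mean CPM over the 12 libraries was the lowest of the 40 genes. Espl1 and Pttg1, an enzyme and its inhibitor, thus moved in opposite directions against ethanol. Against untreated cells Espl1 was lower and Pttg1 did not pass the test.

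**Figure D2:**
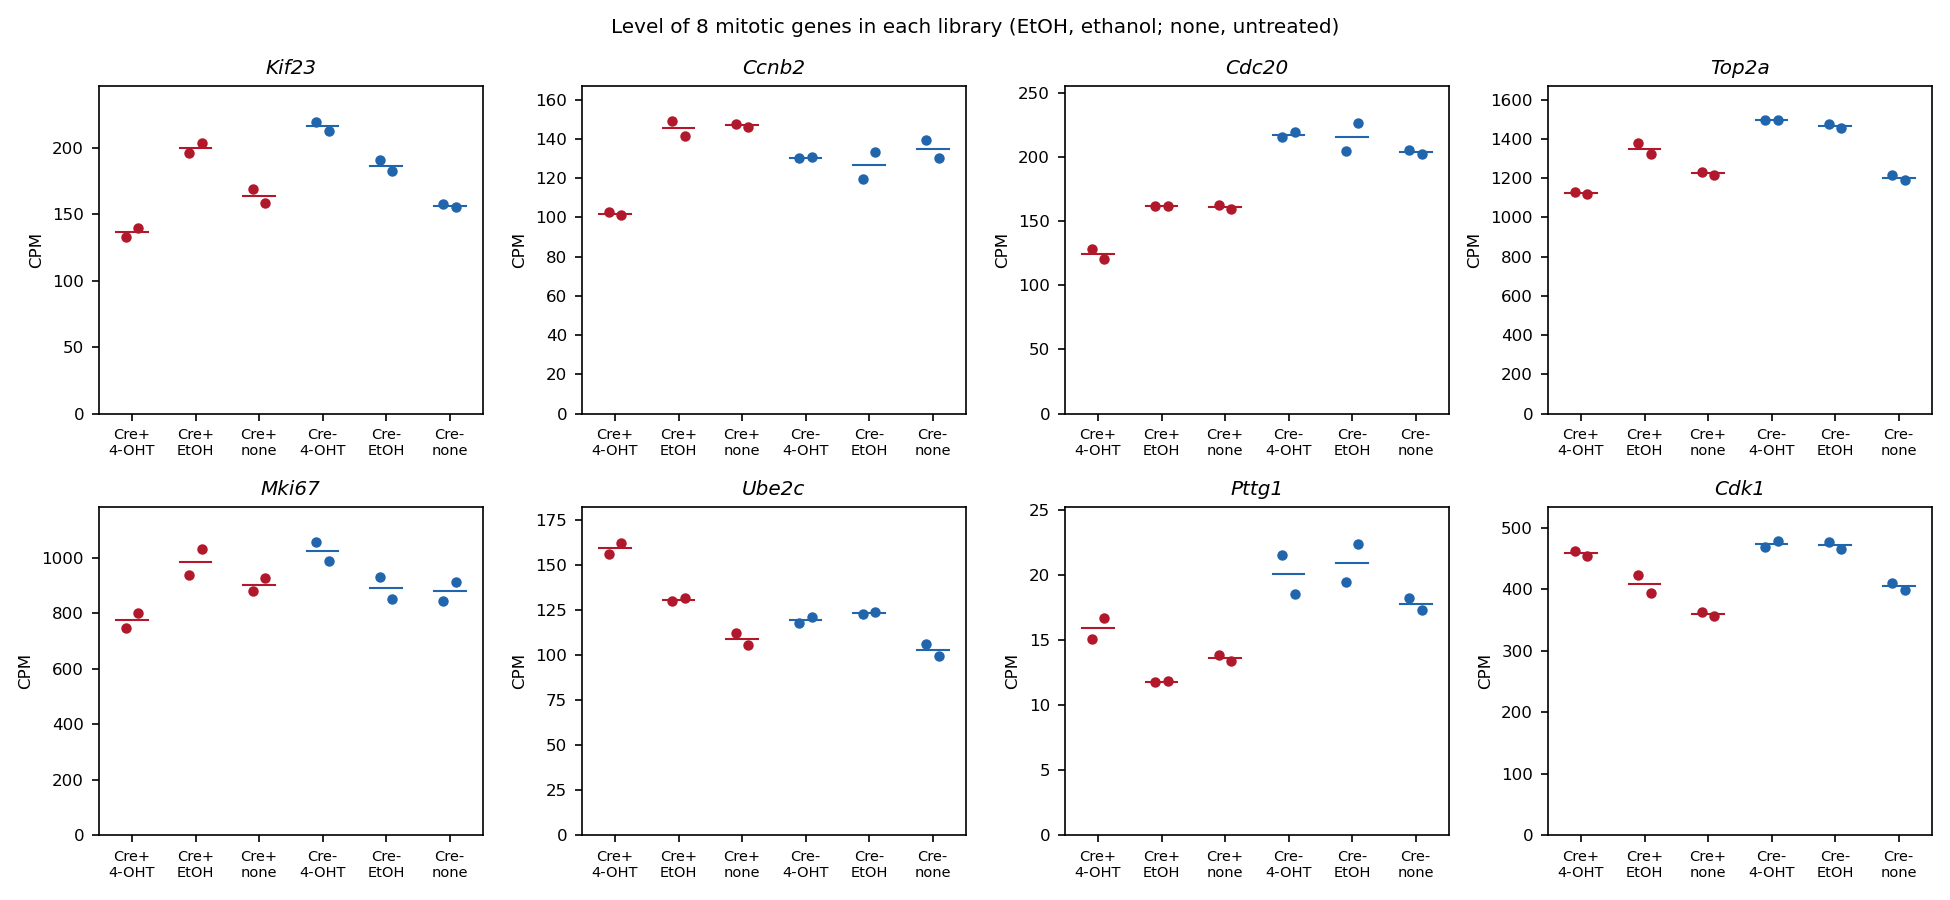
Level in CPM of 8 genes in each library (points) with the mean of each group of 2 (lines), Cre-positive groups in red and Cre-negative groups in blue; each axis starts at 0. For Kif23, Ccnb2, Cdc20, Top2a and Mki67 the Cre-positive 4-OHT libraries are the lowest of the 12, and for Ube2c they are the highest.

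Of the 10 genes of mitotic entry 3 fell, 1 rose and 6 did not pass the test (median log2 change -0.06). The share called in either direction, 40%, was near the 38.3% of all genes tested. Ccnb2, a B-type cyclin, had 103 and 101 CPM with 4-OHT in Cre-positive cells, against 149 and 142 CPM with ethanol. Its 4-OHT libraries were the lowest of the 12, and the log2 change was -0.51 (SE 0.048, adjusted p = 4.59e-08). Cdc25b, a phosphatase that activates Cdk1, had 71.9 and 64.7 CPM with 4-OHT, against 86.7 and 85.8 CPM with ethanol (log2 change -0.33, SE 0.048, adjusted p = 1.35e-05). Cdk1, the kinase, had 462 and 455 CPM with 4-OHT, against 423 and 394 CPM with ethanol (log2 change 0.17, SE 0.038, adjusted p = 0.00155). Its groups were separate, but the 4-OHT libraries stood no higher than the Cre-negative 4-OHT and ethanol libraries, which ran between 466 and 479 CPM. Ccnb1, the other B-type cyclin, had 151 and 149 CPM with 4-OHT, against 154 and 144 CPM with ethanol, and its groups overlapped (log2 change 0.01, SE 0.041, adjusted p = 0.822). Ccna2, which acts before cyclin B, fell by 0.12 on the log2 scale, a call lost without library 11 (adjusted p = 0.0553) or 12 (0.0700) in a range of 0.00203 to 0.0700 over 18 settings. The remaining genes did not pass the test: Cdc25c (log2 change 0.07), the kinases Plk1 (-0.11), Aurka (-0.05) and Nek2 (-0.07), and Foxm1 (-0.03), the transcription factor of G2 genes, which had 95.1 and 103 CPM with 4-OHT, against 95.9 and 106.9 CPM with ethanol.

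Of the 9 genes of the centromere, kinetochore and chromosomal passenger complex, 5 fell and 1 rose against ethanol. These were 55.6% and 11.1%, against 17.2% and 21.1% of all genes, and the median log2 change was -0.10. Against untreated Cre-positive cells 0 were lower (18.2% of all genes), 2 were higher (22.2%, against 21.0% of all genes) and 7 did not pass the test. Cenpf, a large protein of the outer kinetochore corona, had 274 and 281 CPM with 4-OHT, against 308 and 316 CPM with ethanol (log2 change -0.17, SE 0.040, adjusted p = 0.00161). Its ethanol libraries were above the untreated ones (278 CPM in both), which lay between the 4-OHT libraries. Aurkb, the kinase of the chromosomal passenger complex, had 73.0 CPM in both 4-OHT libraries, against 80.9 and 82.5 CPM with ethanol (log2 change -0.16, SE 0.043, adjusted p = 0.00459). Cenpa, the centromeric histone, had 118 and 122 CPM with 4-OHT, against 139 and 128 CPM with ethanol (log2 change -0.15, SE 0.046, adjusted p = 0.0113). Birc5 (survivin) and Cenpe, the kinesin of the kinetochore, fell by 0.14 and 0.10 on the log2 scale, but these calls and that of Cenpa were lost without library 11 (adjusted p = 0.101 for Birc5 and 0.216 for Cenpe). Birc5 and Cenpe also lost them without library 12 (0.0567 and 0.0798), Cenpe without library 4 (0.341) and Cenpa without library 3 (0.0706). The subunits of the NDC80 complex, which holds microtubule ends, had no call as lower. Ndc80 and Nuf2 had log2 changes of 0.03 and -0.00. Spc25 had 80.5 and 85.6 CPM with 4-OHT, against 76.8 and 74.9 CPM with ethanol (log2 change 0.13, SE 0.051, adjusted p = 0.0493), a call that 2 of 18 other settings kept, with adjusted p between 0.000455 and 0.326. Incenp, the scaffold of the passenger complex, had an estimate above 0 (0.09) that did not pass the test (adjusted p = 0.0549).

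The 5 genes of spindle motors and microtubule proteins had few calls, with 1 lower and 4 that did not pass the test. The share lower, 20%, was near the 17.2% of all genes, and the median log2 change was -0.04. Hmmr, a microtubule-binding protein of the spindle pole, had 181 CPM in both 4-OHT libraries, against 201 and 195 CPM with ethanol (log2 change -0.13, SE 0.037, adjusted p = 0.00898). Its call was lost without library 11 (0.0516) or 12 (0.0508). Kif11, the motor that pushes the spindle poles apart, had 378 and 374 CPM with 4-OHT, against 361 and 343 CPM with ethanol (log2 change 0.10, SE 0.039, adjusted p = 0.0556). Kif4, a chromosome-bound kinesin, had 199 and 195 CPM with 4-OHT, against 205 and 199 CPM with ethanol (log2 change -0.04, adjusted p = 0.433). Kif2c, a microtubule depolymerase, and Tpx2, which activates Aurora A on the spindle, had log2 changes of -0.04 and 0.03 and did not pass the test either. A difference between roles was not tested.

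Both genes of chromosome structure fell, where 17.2% of all genes did. Top2a, the topoisomerase that disentangles sister chromatids, had 1131 and 1118 CPM with 4-OHT in Cre-positive cells, against 1380.4 and 1322 CPM with ethanol (log2 change -0.26, SE 0.034, adjusted p = 3.72e-06). Mki67, which coats mitotic chromosomes and is widely used as a mark of dividing cells, had 747 and 803 CPM with 4-OHT, against 940.5 and 1032 CPM with ethanol (log2 change -0.35, SE 0.053, adjusted p = 2.50e-05). In both genes the 4-OHT libraries were the lowest of the 12. The 4 genes called higher had exons spanning 2000 to 4934 bases in total, and the 21 called lower 1531 to 15433 bases. Across the 40 genes the log2 change and exon length had a Spearman rho of -0.127, as a description across genes that are not independent replicates.

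**Figure D3:**
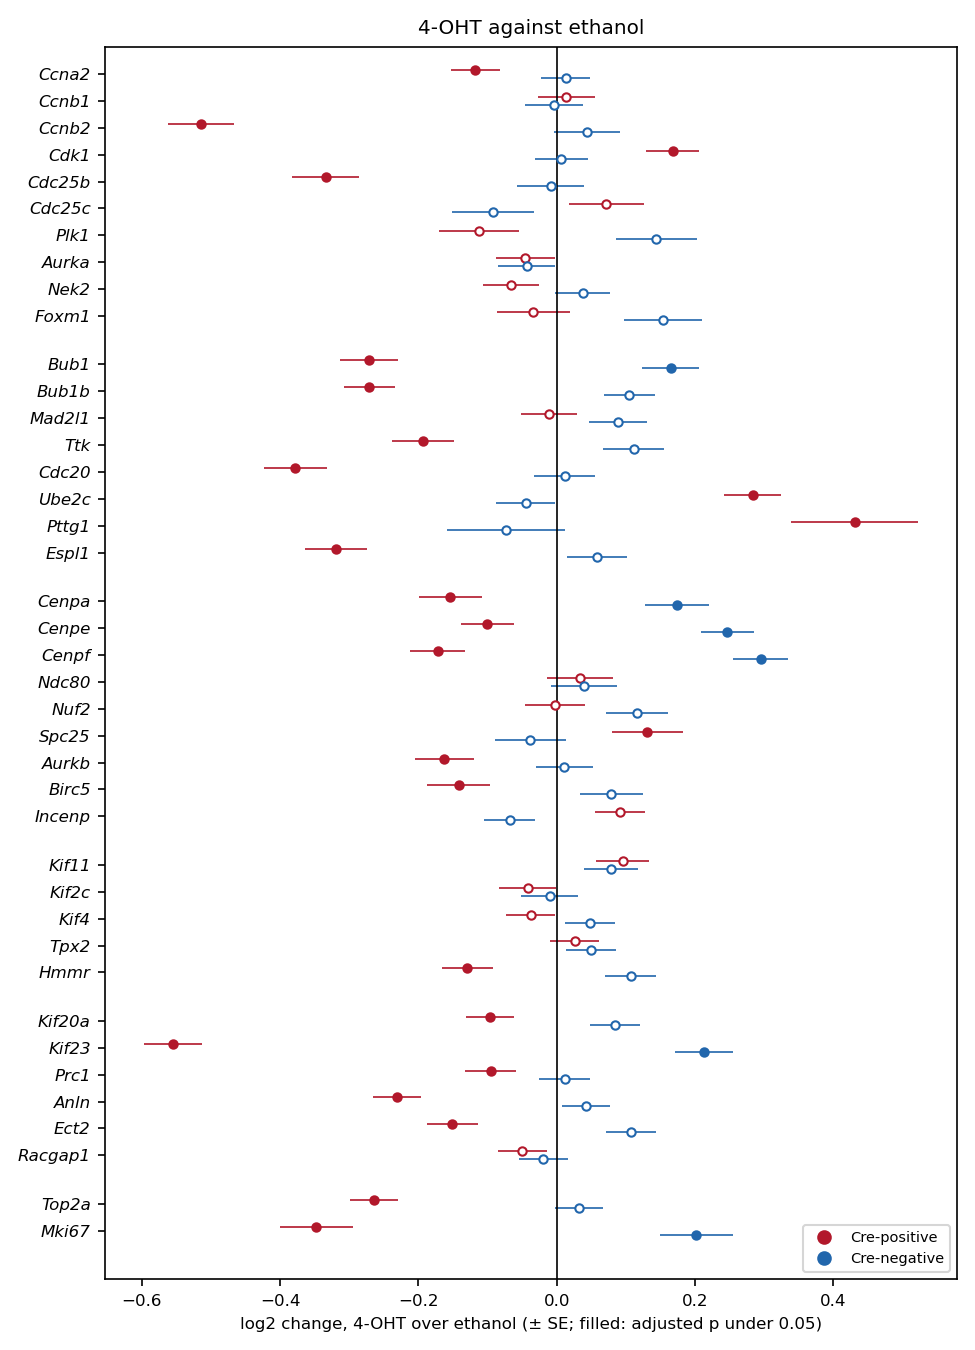
log2 change with 4-OHT over ethanol for the 40 genes (rows, grouped by role) in Cre-positive cells (red) and Cre-negative cells (blue), with 1 standard error each way; filled points have an adjusted p under 0.05. Kif23 lies farthest left in Cre-positive cells (-0.55), and no Cre-negative point below 0 is filled.

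In Cre-negative cells none of the 40 genes was called lower with 4-OHT. With ethanol as its control, 6 genes were higher and none lower (3.33% and 2.65% of all genes, 5.99% in all), and the median log2 change was 0.05, against 0.00 over all genes tested. At an unadjusted p under 0.05 edgeR's test also had 0 of the 40 lower, and DESeq2 called 0 lower at its adjusted threshold. The 4-OHT libraries lay wholly above the ethanol libraries in 23 of the 40 and wholly below in 5, against 25.3% and 25.7% of all genes. The 6 genes were Cenpf (log2 change 0.29), Cenpe (0.25), Kif23 (0.21), Mki67 (0.20), Cenpa (0.17) and Bub1 (0.16). Kif23 had 220 and 213 CPM with 4-OHT, against 190.3 and 183 CPM with ethanol. All 6 were lower with 4-OHT in Cre-positive cells, a comparison that uses other libraries. The share of all genes with both calls was not counted. Leaving out library 5 or library 10 left 2 genes called higher.

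The difference between both 4-OHT effects, tested as an interaction, was below 0 for 20 genes and above 0 for 4; 13.8% and 14.5% of all genes (28.3% in all) passed in each direction. The median difference was -0.18 over the 40 genes and 0.02 over all genes. The largest was that of Kif23 (-0.77 on the log2 scale, SE 0.059, adjusted p = 1.33e-08), for which the estimates were -0.55 with Cre and 0.21 without it. Ccnb2 followed (-0.56, SE 0.068, adjusted p = 3.92e-06), with estimates of -0.51 and 0.04, and then Mki67 (-0.55, SE 0.075, adjusted p = 1.46e-05). Among the genes above 0, Ube2c (0.33, SE 0.060, adjusted p = 0.000324) kept its call in every one of 17 other settings, and Pttg1 (0.50), Cdk1 (0.16) and Incenp (0.16) lost it without library 10 and, Cdk1 and Incenp, without several others. The genes above 0 numbered 2 without library 4, 6, 9, 11 or 12, 1 without library 10 and 2 with only the compared libraries in the fit. Plk1, the polo-like kinase, passed this test (-0.26, adjusted p = 0.0239) although it passed neither 4-OHT comparison, with estimates of -0.11 and 0.14; it lost the call without library 4, 5, 9 or 11. Ccna2 and Prc1, lower in Cre-positive cells, did not pass it (adjusted p = 0.0559 and 0.136).

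Against the untreated Cre-positive cells, the same 4-OHT libraries gave 10 genes lower and 5 higher (18.2% and 21.0% of all genes, 39.2% in all), with a median log2 change of -0.06 over the 40 genes and 0.01 over all genes. The 4-OHT libraries lay wholly below the untreated ones in 21 of the 40 and wholly above in 13, against 32.7% and 36.4% of all genes. The genes called lower were Ccnb2 (log2 change -0.53), Cdc20 (-0.37), Bub1b (-0.36), Cdc25b (-0.29), Kif23 (-0.27), Bub1 (-0.25), Mki67 (-0.22), Espl1 (-0.17), Ttk (-0.14) and Top2a (-0.12). Those called higher were Ube2c (0.55), Cdk1 (0.35), Spc25 (0.30), Kif11 (0.24) and Incenp (0.21). Against ethanol, Kif11 and Incenp had not passed, whereas Pttg1, called higher there, did not pass against untreated cells. Without library 7 the calls of Ttk and Espl1 were lost, and without library 12 those of Ttk and Top2a. Neither Anln (-0.06, adjusted p = 0.203) nor Cenpf (-0.00, adjusted p = 0.949) passed against untreated cells, where their log2 changes against ethanol were -0.23 and -0.17. These comparisons share the 4-OHT libraries. The genes called lower numbered 17 without library 3, 16 without library 5 or 6, 19 with library totals alone as the scale and 17 with only the compared libraries in the fit.

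Ethanol alone went with higher levels of many of these genes. In Cre-negative cells 21 of the 40 were higher with ethanol than without treatment and none was lower (12.5% and 12.0% of all genes, 24.5% in all), and the median log2 change was 0.12, against -0.00 over all genes. At an unadjusted p under 0.05 edgeR's test had 1 of the 40 lower there (Bub1), DESeq2 called 0 lower, and without library 10 there was 1. In Cre-positive cells 11 were higher and 1 lower (8.11% and 6.84% of all genes, 14.9% in all), and the median was 0.06, against -0.01. The ethanol libraries lay wholly above the untreated ones in 23 of the 40 in Cre-positive cells and wholly below in 5 (25.6% and 27.4% of all genes), and in 30 and 3 in Cre-negative cells (30.6% and 30.0%). The 11 numbered 7 without library 8, and the call of Cdc25c as lower (-0.17, adjusted p = 0.0480) was lost without any 1 of the 12 libraries. In Cre-negative cells Spc25 had the largest rise, with 87.4 and 84.6 CPM with ethanol, against 63.7 and 58.6 CPM untreated (log2 change 0.49, SE 0.054, adjusted p = 5.32e-07). Incenp (0.45) and Aurkb (0.40) followed, and all 5 spindle motor and microtubule genes rose. Kif23 was higher with ethanol in both genotypes, with a log2 change of 0.29 in Cre-positive cells (SE 0.042, adjusted p = 8.76e-05) and 0.25 in Cre-negative cells (SE 0.043, adjusted p = 0.000124). In all, 9 genes were called higher with ethanol in both genotypes, which share no library. The share of all genes called higher in both was not counted, so this number cannot be weighed against it. The Cre-positive ethanol libraries are also the control of the 4-OHT comparison, so a gene that is high in them counts as a rise here and as a fall there. The labels do not say when the untreated cells were collected, so vehicle and time in culture cannot be told apart.

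**Figure D4:**
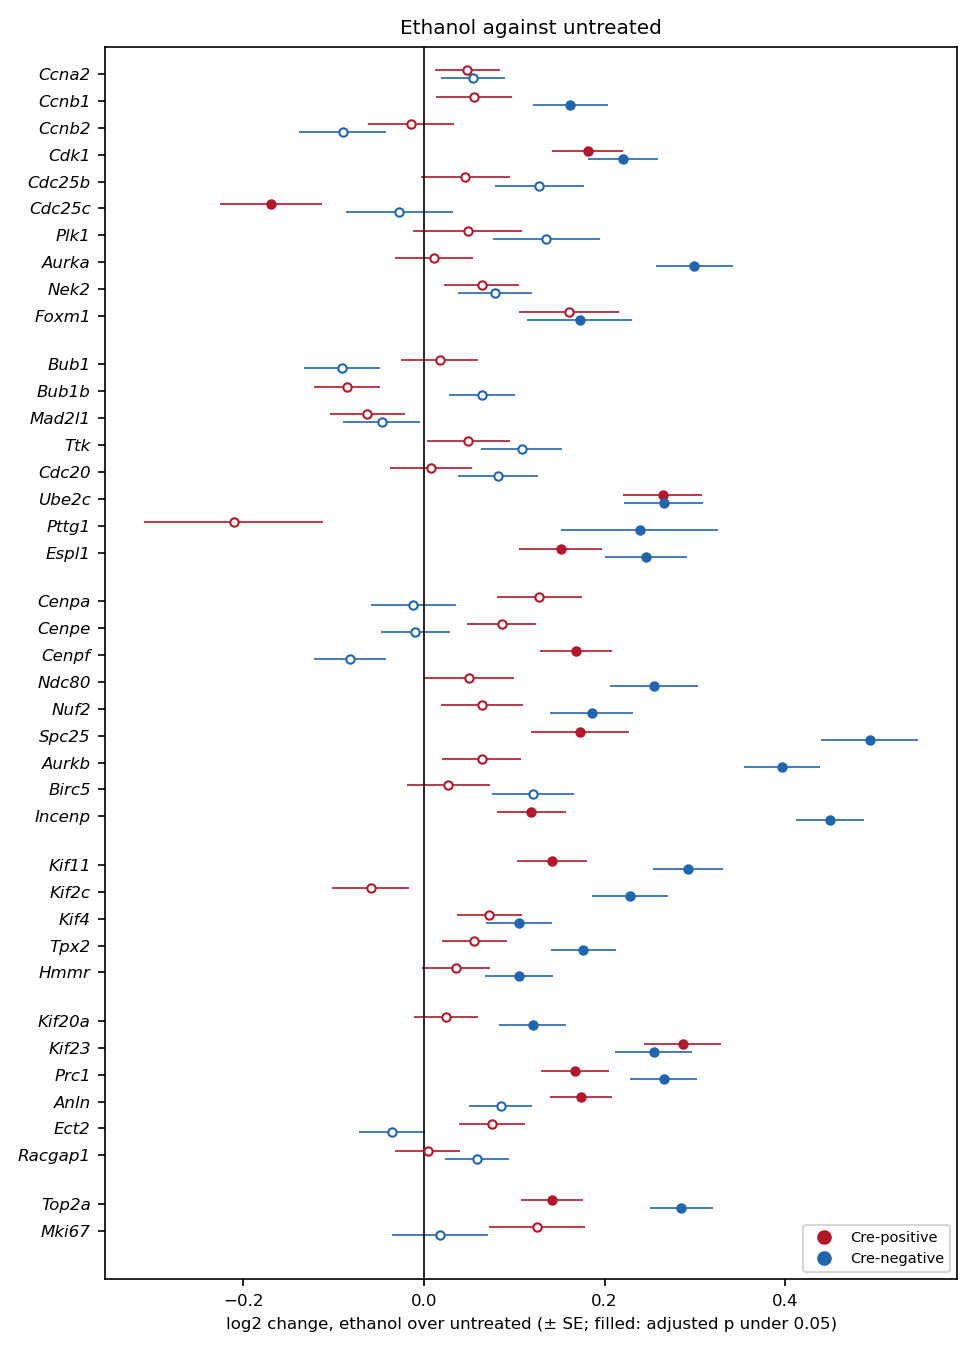
log2 change with ethanol over no treatment for the 40 genes (rows, grouped by role) in Cre-positive cells (red) and Cre-negative cells (blue), with 1 standard error each way; filled points have an adjusted p under 0.05. In Cre-negative cells 21 points are filled, all above 0, with Spc25 farthest right (0.49), and in Cre-positive cells 11 are filled above 0 and Cdc25c below.

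Taking ethanol and untreated cells of a genotype together as the control of 4-OHT left 18 genes lower and 6 higher in Cre-positive cells (19.6% and 23.7% of all genes, 43.3% in all). In Cre-negative cells the same control gave 25 genes higher (of all genes 5.70% were higher and 4.14% lower, 9.84% in all), where ethanol alone gave 6 higher. Kif23 then had a log2 change of -0.41 and Ube2c 0.42 in Cre-positive cells.

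Cre-positive cells were also set against Cre-negative cells within each condition. With 4-OHT, 29 of the 40 genes were lower in Cre-positive than in Cre-negative cells and 5 were higher (30.2% and 30.5% of all genes, 60.7% in all), with a median log2 difference of -0.24, against -0.00 over all genes. With ethanol 19 were lower and 11 higher (28.1% and 26.4%, 54.5% in all; median -0.07), and without treatment 11 were lower and 9 higher (24.6% and 24.4%, 49.0% in all; median 0.03). Without treatment the genes called lower numbered 6 without library 8 and 7 without library 1, and the genes called higher 6 without library 2, 7 or 8. The share of mitotic genes called in untreated cells was thus close to that of all genes. Cre-positive libraries lay wholly below Cre-negative ones in 33 genes with 4-OHT (39.5% of all genes), 22 with ethanol (38.1%) and 15 untreated (35.9%), and wholly above in 5 (40.1%), 13 (37.3%) and 16 (36.8%). Cdc20 was lower in Cre-positive cells throughout, at -0.81 with 4-OHT, -0.42 with ethanol and -0.34 without treatment. With 4-OHT it had 128 and 121 CPM in Cre-positive cells, against 216 and 219 CPM in Cre-negative cells. Kif20a was higher throughout, with log2 differences of 0.44 with 4-OHT, 0.62 with ethanol and 0.72 without treatment. Without treatment it had 269 and 263 CPM in Cre-positive cells, against 162 CPM in both Cre-negative libraries. In all, 9 genes were lower in Cre-positive cells in each condition (Nek2, Ttk, Cdc20, Pttg1, Espl1, Aurkb, Prc1, Ect2 and Racgap1) and 4 were higher (Cdc25c, Foxm1, Mad2l1 and Kif20a). The share of all genes called the same way in each condition was not counted, so these numbers are not set against a background. Kif23 and Ccnb2 were among the genes that changed direction between conditions. Kif23 was -0.67 with 4-OHT and 0.10 with ethanol, and Ccnb2 -0.36 and 0.20, differences that all passed the test. By group means Anln, Cenpf and Mki67 changed direction too. Mki67 had 775 CPM in Cre-positive and 1025 CPM in Cre-negative cells with 4-OHT, and 986 and 891 CPM with ethanol. The difference between both 4-OHT effects used the same libraries. The share of all genes that changed direction was not counted.

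Other genes of mitosis, in 6 lists that hold none of the 40, also counted more falls than rises in Cre-positive cells with 4-OHT against ethanol. Of 114 genes 44 were lower and 18 higher (38.6% and 15.8%, against 17.2% and 21.1% of all genes), with a median log2 change of -0.06. Condensin, which compacts mitotic chromosomes, had 6 of 8 subunits lower (75%) and 2 that did not pass the test (median -0.22). Those lower included Ncapd2 (-0.38), Ncapg2 (-0.30) and Ncapd3 (-0.30). Of 36 other kinetochore and centromere genes 11 were lower and 8 higher (30.6% and 22.2%), the share higher being near that of all genes. Kntc1 (log2 change -0.61), a subunit of the RZZ complex that brings dynein to kinetochores, and Trip13 (-0.47), the ATPase that takes apart checkpoint complexes, fell, whereas Zw10 (0.20), another RZZ subunit, and Ska3 (0.25), of the complex that tracks microtubule ends, rose. Of 24 other spindle and cytokinesis genes 9 were lower and 2 higher (37.5% and 8.33%). Knstrn (-0.64) and Spag5 (-0.55), which form the astrin and kinastrin complex of attached kinetochores, and the kinesin Kif15 (-0.52) had the smallest p, and Dlgap5 (0.24), a spindle assembly protein, rose.

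Of 15 other mitotic entry regulators 7 were lower and 2 higher (46.7% and 13.3%, against 17.2% and 21.1% of all genes). Mastl (-0.19), the Greatwall kinase, fell, and the Cdk1 subunits Cks1b (0.15) and Cks2 (0.17) rose. Of 17 APC/C genes 7 were lower and 3 higher (41.2% and 17.6%), with Cdc23 at -0.42 and Anapc10 at 0.30. Of 14 cohesin genes 4 were lower and 3 higher (28.6% and 21.4%), with Esco2, the acetyltransferase of sister cohesion, at -0.32. Of 18 DREAM, B-MYB and E2F genes 6 were lower and 4 higher (33.3% and 22.2%). The shares higher in the APC/C, cohesin and DREAM lists were near that of all genes. Mybl2 (B-MYB) fell to 27.6 ± 0.783 CPM with 4-OHT, against 35.6 ± 0.829 CPM with ethanol (SD, n = 2 each; log2 change -0.37), E2f4 fell by 0.46, and Lin9 and Lin52 of the MuvB core rose by 0.20 and 0.39. Of 6 inhibitors of cyclin-dependent kinases that were tested, 2 rose (33.3%, against 21.1% of all genes) and 4 did not pass the test. Those that rose were Cdkn2c (0.36) and Cdkn2d (0.28). Cdkn1a (p21) had 2.37 ± 0.422 CPM with 4-OHT, against 1.85 ± 0.198 CPM with ethanol (SD, n = 2 each; adjusted p = 0.150).

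DNA replication genes, used before mitosis, were set beside the 40. Of 32, 13 were lower and 3 higher (40.6% and 9.38%, against 17.2% and 21.1% of all genes), with a median log2 change of -0.11. The mitotic genes had 21 lower and 4 higher of 40 (52.5% and 10%) and a median of -0.10. Pole (-0.57), the leading-strand polymerase, and Lig1 (-0.46) fell and Mcm4 (0.22) rose. A difference between these lists was not tested.

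**Figure D5:**
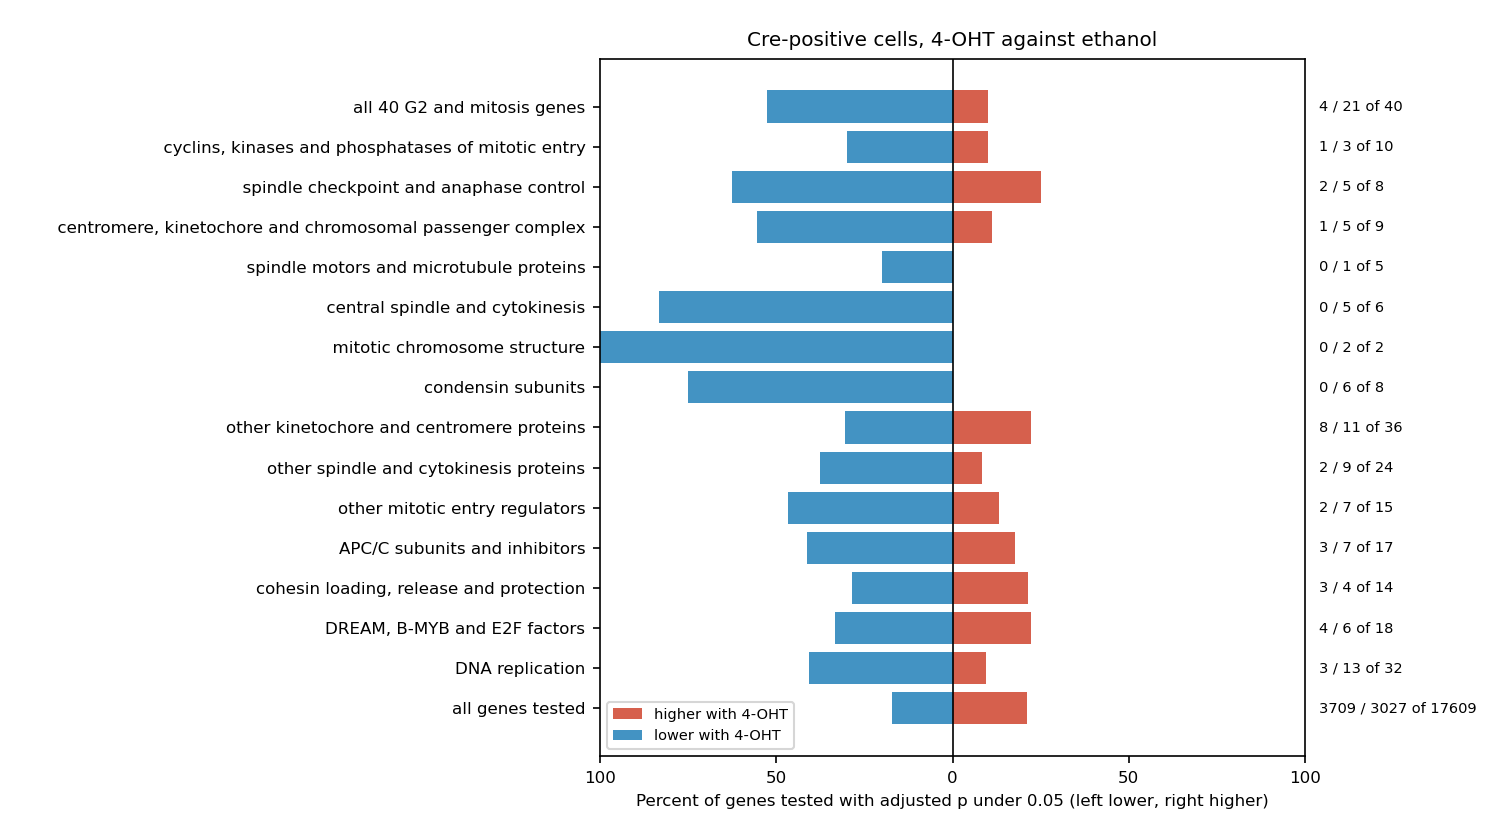
Percent of the genes of each list called lower (left, blue) or higher (right, red) with 4-OHT over ethanol in Cre-positive cells; the numbers at the right give genes higher, genes lower and genes tested. The 40 mitotic genes have 52.5% lower and 10% higher, against 17.2% lower and 21.1% higher over all genes tested.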

How the data were processed

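Gene counts for the 12 libraries were used as deposited by the authors: expected counts, in whole numbers, with 1 row per gene symbol. Libraries were made from column-purified RNA with a stranded, ribosomal RNA-depleted total RNA kit and sequenced as read pairs, per the labels' protocols. Among the tools in the submitters' processing notes are RSEM 1.2.30, STAR 2.5.2a, cutadapt 1.11 and edgeR, with the build GRCm38 and no role or order. Annotation, strand setting and rounding are not given in the sources used, so reads of overlapping genes could be shared between them. All 12 columns matched a sample by title.

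Counts were filtered with edgeR's filterByExpr (edgeR 4.0.16, limma 3.58.1, R 4.3.3), which kept 17609 genes, and scaled by TMM (factors 0.972 to 1.02). CPM values are counts per 1000000 counts of the scaled library. The quasi-likelihood test used 1 mean per group over all 12 libraries, so that 6 groups of 2 share one estimate of the spread (biological coefficient of variation 3.44%, 6 residual degrees of freedom). P-values were adjusted by Benjamini-Hochberg over all genes tested, with a threshold of 0.05, and the standard error was taken from the log2 change and its F statistic. The script was tested on simulated data. The 2 libraries of each group differed by more than counting noise (chi-square per degree of freedom 2.40 to 4.73), so none was treated as a copy.

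Genes were matched by symbol to GENCODE M21 (GRCm38) for length and to RefSeq promoter windows. The 40 genes and the other lists were chosen with earlier results of these data known. Library values are given for the 3 genes per role with the smallest p in the comparison of Cre-positive 4-OHT with ethanol and for all genes called higher there. From the other lists at most 3 called genes per direction with the smallest p are named. Cdkn1a and genes shown for contrast were added after their values were seen. Alternatives were RLE factors, library totals alone, no low-count filter, DESeq2 1.42.0, only the compared libraries in the fit, ethanol and untreated cells as a joint control, and leaving out each library in turn.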

Additional observations from a re-analysis of the deposited data

Results flagged for a closer look

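The effect of 4-OHT differed between Cre-positive and Cre-negative cells, by edgeR's test of the difference itself with Benjamini-Hochberg adjustment, for 24 of the 40 genes. The values are the log2 change with 4-OHT over ethanol in Cre-positive cells minus that in Cre-negative cells. The difference was below 0 for 20 genes.

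Among cytokinesis genes it was -0.767 for Kif23, -0.273 for Anln, -0.258 for Ect2 and -0.181 for Kif20a. Among checkpoint and anaphase genes it was -0.437 for Bub1, -0.389 for Cdc20, -0.377 for Espl1, -0.376 for Bub1b and -0.305 for Ttk. In mitotic entry it was -0.558 for Ccnb2, -0.325 for Cdc25b and -0.256 for Plk1. In centromere, kinetochore and passenger complex genes it was -0.467 for Cenpf, -0.347 for Cenpe, -0.328 for Cenpa, -0.221 for Birc5 and -0.174 for Aurkb. It was -0.236 for Hmmr, -0.55 for Mki67 and -0.297 for Top2a. The difference was above 0 for Pttg1 (0.504), Ube2c (0.328), Cdk1 (0.161) and Incenp (0.16).

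The calls of Plk1, Aurkb, Birc5, Cdk1, Pttg1 and Incenp were each lost in at least 1 of 17 other settings, and the remaining 18 calls were kept in all 17. With 2 libraries per group no library could be tested as an outlier.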

How the results depend on the processing

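No log2 change of the 40 genes reversed its sign among calls, in any setting. In Cre-positive cells with 4-OHT against ethanol, 14 of the 21 genes called lower and 3 of the 4 called higher kept their call in each of 18 other settings.

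Leaving out 1 library at a time gave these ranges of genes called. For 4-OHT against ethanol in Cre-positive cells they were 14 to 21 lower and 3 to 4 higher. In Cre-negative cells they were 2 to 6 higher and 0 to 0 lower. The difference between these effects gave 17 to 21 below 0 and 1 to 4 above. Cre-positive 4-OHT against untreated gave 8 to 17 lower and 5 to 7 higher. Ethanol against untreated gave 7 to 12 higher and 0 to 0 lower in Cre-positive cells, and 15 to 24 higher and 0 to 1 lower in Cre-negative cells. Cre-positive against Cre-negative gave 26 to 29 lower and 5 to 5 higher with 4-OHT, 15 to 20 lower and 8 to 11 higher with ethanol, and 6 to 12 lower and 6 to 9 higher untreated.

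Counts moved by over 1.5 times in these other settings. The 10 genes lower against untreated cells became 19 with library totals alone and 17 with only the compared libraries. The 1 gene lower with ethanol in Cre-positive cells became 0 with RLE factors, without the filter, with DESeq2 and with only the compared libraries, and 2 with library totals alone. The 4 differences above 0 became 2 with only the compared libraries. The 6 genes higher with 4-OHT in Cre-negative cells became 25 with the joint control. With library totals alone the calls against untreated Cre-positive cells were 19 lower and 5 higher, and those of ethanol in Cre-positive cells 8 higher and 2 lower. The cause was not tested.

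No paired analysis was possible because the library numbers are unique and no groups share a replicate number. A group that loses 1 of its 2 libraries is assumed to vary like the other groups. The smallest counts in a library were 272 for Pttg1 and 717 for Cdc25c, at which counting error alone is 6.06% and 3.73%, above the biological coefficient of variation of 3.44%, so depth limits these genes. For the other mitotic genes it was below that value in every library.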
